A study of Homo sapiens with 4 samples.

Results

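The genes described here are 39 interferon-stimulated genes, chosen by name as effectors, sensors and regulators of the interferon response, out of 26364 gene symbols in a table of read counts. All 39 had a row in the table. The cells were Ishikawa cells, a line from a human endometrioid adenocarcinoma of the uterus, in which ESR1, the gene of estrogen receptor alpha, carried the activating Y537S mutation. Every group carried this mutation, and no cells with the wild-type receptor were analysed here. After at least 5 days in hormone-deprived medium, which had charcoal-stripped serum and no phenol red, the cells received vehicle (0.1% DMSO) or estradiol (E2, 10 nM), in each case for 8 h. Poly(A) RNA was sequenced from 2 mutant clones under each treatment, so that the study had 4 libraries in 2 groups of 2.

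Each column of the table named its treatment and carried 1 of 2 tags, A4 or B212. The tags are read here as the 2 clones, but they could not be linked to the clone numbers 1 and 2 of the labels. The libraries held between 71575816 and 85222856 counts, and levels are given as CPM, counts relative to the scaled size of the library. ESR1 itself had 110 (A4) and 107 (B212) CPM with DMSO and 97.0 and 86.5 CPM with E2. The mutation is a point mutation, so this level does not check the genotype. Nothing in the labels says that the libraries came from repeated cultures, and each clone had 1 library per treatment, so p-values measure only the spread between these libraries. In fits with both clone and treatment, this spread is how far the treatment difference varied between the clones. It is not a spread between repeated cultures of a clone. Since the samples were bulk cultures, fewer cells that express a gene and less RNA per cell cannot be told apart.

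Interferons are secreted proteins that warn cells of viral infection. Type I interferons bind IFNAR1 and IFNAR2, whose kinases JAK1 and TYK2 phosphorylate STAT2. STAT2 and IRF9 are parts of the complex ISGF3, which binds the interferon-stimulated response element (ISRE) in the promoters of many interferon-stimulated genes. Interferon gamma acts mainly through another element, the gamma-activated site (GAS). The endometrium is a tissue in which the interferon response is known to be under hormonal influence, with IFNE, a type I interferon of the reproductive tract epithelium, as an example.

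The promoters were examined because the members share a known route of induction. RefSeq windows (assembly GRCh38.p14) of 300 bases, from 250 before to 50 after the start site, were given for 31 of the 39 members. IFIT2, IFITM2, MX2, OAS2, OASL, IRF7, USP18 and DHX58 had no window, and DDX58 was matched under its newer symbol RIGI. The ISRE was searched on both strands as GAAA, any 2 bases and again GAAA. It was found in 22 of 31 members, 71.0%, beside 4.38% of the 27305 genes in the table. The GAS, searched as TTCNNNGAA, was found in 9 members, 29%, beside 9.38% of genes, and the letters of the 2 elements can overlap. The consensus estrogen response element, searched as GGTCA and TGACC with any 3 bases between, was in none of the 31 members and in 20 of the 27305 genes. A match is a description of these letters only, and its absence says nothing about binding of the receptor.

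The first set of sequences shows ISRE matches of members that were higher in the B212 libraries. IFITM3 and IFIT5, which lay lower in both B212 libraries, also had matches upstream of the start site, which are not printed. Capitals mark the match, which reads TTTC, 2 bases and TTTC where it lies on the other strand, and each sequence runs 5′ to 3′ along the strand of its gene.
IFI44: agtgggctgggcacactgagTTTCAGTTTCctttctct
IFI44L: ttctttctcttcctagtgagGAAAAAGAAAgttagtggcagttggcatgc
IFIT1: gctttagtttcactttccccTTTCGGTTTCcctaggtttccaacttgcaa
BST2: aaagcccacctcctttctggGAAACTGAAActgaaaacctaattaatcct
HERC5: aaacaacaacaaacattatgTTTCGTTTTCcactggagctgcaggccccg
SAMD9: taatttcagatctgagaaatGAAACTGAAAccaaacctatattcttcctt
ISG15: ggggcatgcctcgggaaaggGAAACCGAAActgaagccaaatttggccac
These lay upstream of the start sites at chr1:78649751-78649788 (IFI44, plus strand), chr1:78620264-78620313 (IFI44L, plus), chr10:89392500-89392549 (IFIT1, plus) and chr19:17405731-17405780 (BST2, minus). The others were at chr4:88457025-88457074 (HERC5, plus), chr7:93118086-93118135 (SAMD9, minus) and chr1:1013370-1013419 (ISG15, plus). The IFI44L stretch of 50 bases occurred again in the same window at chr1:78620355-78620404.

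The second set belongs to members with almost no reads in any library, to show that the same letters stood in their promoters.
IFIH1: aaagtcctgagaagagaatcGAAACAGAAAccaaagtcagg
OAS3: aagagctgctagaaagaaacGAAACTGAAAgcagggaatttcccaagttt
PARP14: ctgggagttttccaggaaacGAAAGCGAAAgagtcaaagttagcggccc
RSAD2: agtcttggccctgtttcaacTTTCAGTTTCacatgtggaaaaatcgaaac
Their positions were chr2:162318685-162318725 (IFIH1, minus strand), chr12:112938311-112938360 (OAS3, plus), chr3:122680790-122680838 (PARP14, plus) and chr2:6877612-6877661 (RSAD2, plus). Among the 22 members with an ISRE match, 16 had enough reads to be tested and 6 did not. Among the 9 members whose window held no match, 6 were tested and 3 were not.

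The members spanned the range from silent to abundant. A gene was tested where it passed the filterByExpr function of edgeR with a minimum count of 10, which 15599 genes and 28 of the 39 members did. Per kilobase of transcript, on means over the 4 libraries, the highest member was IFITM3 at 56.0 CPM per kilobase. It was followed by IFITM2 (19.7), STAT2 (17.2), EIF2AK2 (12), IFITM1 (8.99), DDX58 (7.33) and BST2 (5.78). This order depends on the transcript taken, here the longest coding one. For EIF2AK2 it had 10.04 kb, and before this division EIF2AK2 had the highest mean of the members, 120.6 CPM. IFITM1, IFITM2 and IFITM3 are small membrane proteins that hinder virus entry, and their transcripts share sequence. Of the 32-base words of their transcripts, 45.8% (IFITM1), 23.8% (IFITM2) and 42.0% (IFITM3) also occur in transcripts of other genes, and how the counting treated such reads is not known. Only 5 tested members reached a mean of 10 CPM, and 11 had under 200 counts in every library. The median of the mean count was 240.8 over the tested members and 1617.5 over all tested genes, so most members were measured less precisely than a typical gene.

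The 11 members that were not tested were MX2, OAS1, OAS2, OAS3, RSAD2, XAF1, SAMD9L, PARP9, PARP14, DTX3L and IFIH1. OAS2, XAF1 and PARP9 had no read in any library, which allows up to 0.0410 CPM by the limit of 3 counts, for counting error only. OAS1 had 1 count in all, in the B212 E2 library, and OAS3 and SAMD9L had 1 each, in the B212 DMSO library. OAS1, OAS2 and OAS3 make the second messenger that activates RNase L, so that this whole enzyme family was at the limit of detection, while its relative OASL had 13 to 21 counts. MX2, a dynamin-like GTPase that blocks nuclear import of viral genomes, was the only untested member with more than 4 counts in a library, with 1 and 0 in A4 (DMSO, E2) and 12 and 9 in B212. DTX3L, a ubiquitin ligase and the partner of PARP9, had 1, 0, 4 and 1 counts in A4 DMSO, A4 E2, B212 DMSO and B212 E2. IFIH1 (MDA5, a sensor of long double-stranded RNA) had at most 1 count per library, as did PARP14, and RSAD2 (viperin) at most 2.

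Of the genes beside these members, several had many reads and others had none or almost none. Next to the PARP9, DTX3L and PARP14 cluster, KPNA1 had 9932 to 14289 counts per library and HSPBAP1 519 to 674. PTPN11, near the OAS genes, had 27603 to 33602 counts, and GCA, beside IFIH1, had 2203 to 3230. CDK6 and VPS50, near SAMD9L, had 1716 to 3927 and 2805 to 3965 counts. CMPK2, another interferon-stimulated gene and the neighbour of RSAD2, had 2 to 9. No read was counted for RPH3A near the OAS genes, GCG near IFIH1 or SOX11 near RSAD2. PARP15, near PARP9 and PARP14, had 0 to 1 counts and FAP, near IFIH1, 0 to 2. Around XAF1, SLC13A5, FBXO39 and TEKT1 had no read, while C17orf100 had 89 to 229 counts.

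**Figure D1:**
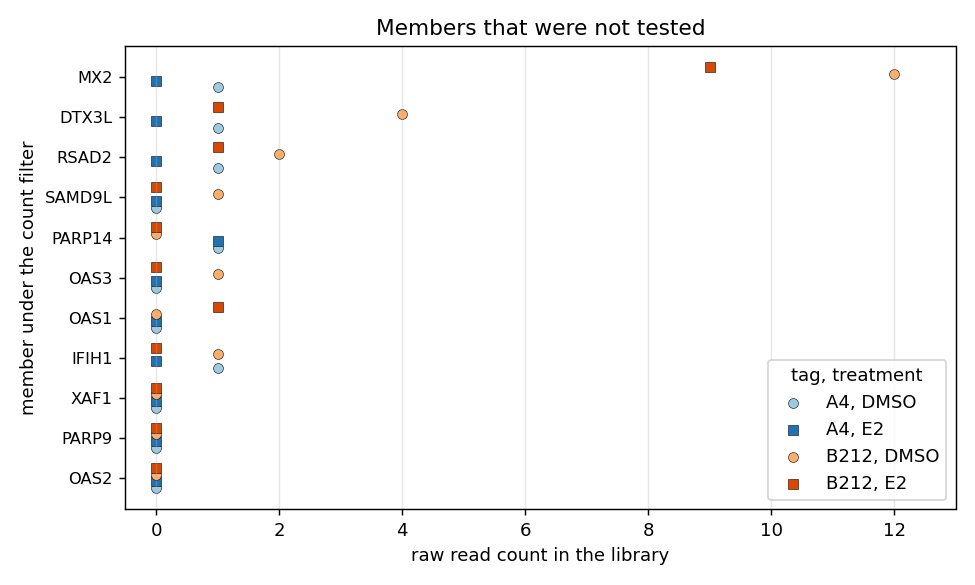
Raw read counts (x axis) of the 11 interferon-stimulated genes under the count filter (y axis) in the 4 libraries, 1 point per library, offset vertically for legibility. MX2 in the 2 B212 libraries, at 12 and 9 counts, stands apart from the other points, which lie at 4 counts or below.

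**Figure D2:**
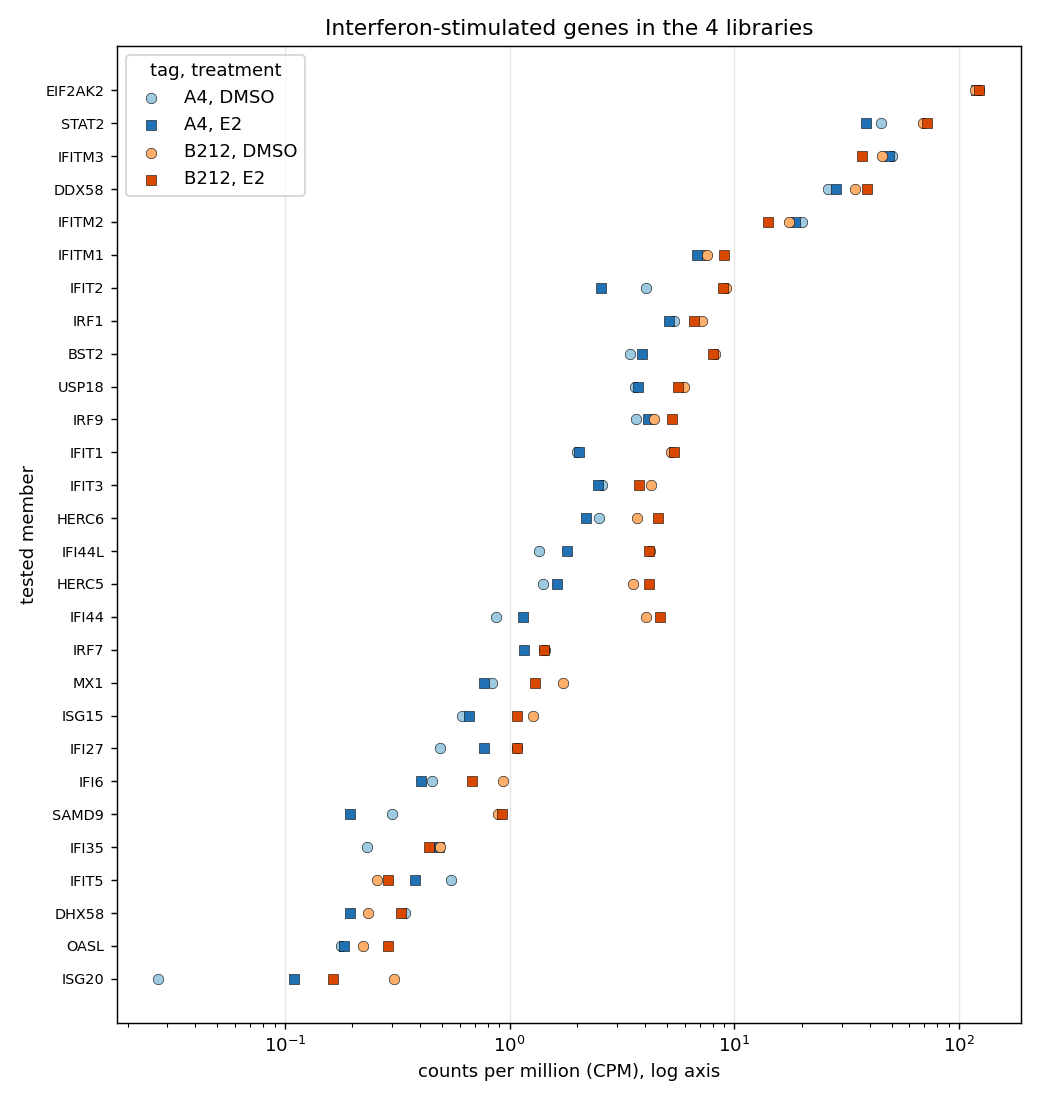
CPM on a log axis (x) of the 28 tested members (y) in the 4 libraries, 1 point per library, with no error bars since each tag and treatment had 1 library. The EIF2AK2 points lie together at 117 to 123 CPM, while for IFI44 both B212 points lie at 4.03 CPM or above and both A4 points lie at 1.15 CPM or below.

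The clones differed widely in these genes. Both carried the same mutation and each is a single derived line, so the difference is one between these cells and not between genotypes. The comparison of the B212 with the A4 libraries used edgeR's quasi-likelihood test with treatment as a covariate and Benjamini-Hochberg adjustment over all 15599 genes, with a threshold of 0.05, and all adjusted p-values in this comparison come from it. Of the 28 tested members, 20 were called, 18 higher in B212 and 2 lower. The background was high: 51.0% of all tested genes were called, with 25.2% higher and 25.8% lower. At an unadjusted p under 0.05 there were 22 members, beside 56.5% of all genes. The calls among all genes were thus near balance, while those of the members were mostly in 1 direction. The median log2 fold change (B212 minus A4) was 0.72 over the members and 0.0042 over all genes tested, and member values ran from -0.76 to 2.11.

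Both B212 libraries lay above both A4 libraries for 21 members and below them for 3, and the remaining 4 overlapped. Over all genes these shares were 34.7% and 32.8%. The median member difference was 0.72 between the DMSO libraries and 0.59 between the E2 libraries, so it was seen under each treatment. Scaled by library size alone, the median of all genes was 0.071 and that of the members 0.78, and 20 members were called higher and 1 lower. ISG20 passed the filter only through the B212 libraries, so its direction was partly set by the filter. It is among the 21 members above and among the 20 calls, of which 8 had a log2 fold change of at least 1 in size. All 8, ISG20 included, were higher in B212. The share of all genes called at that size, or with library sizes alone, is not set beside these member counts, so they are descriptions only.

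Among the effectors, the proteins that act on viral RNA, entry or release, 21 of 28 were tested. In B212, 14 of them were called higher, ISG20 included, and 2 lower, with a median of 0.88. Over all tested genes these shares were 25.2% and 25.8%. IFI44, an interferon-induced protein of the cytoplasm, had 0.874 and 1.15 CPM in A4 (DMSO, E2) and 4.03 and 4.65 CPM in B212. The B212 libraries were high under both treatments with no overlap. The fitted log2 fold change was 2.11 ± 0.17 (SE), or 4.30-fold, at an edgeR adjusted p of 2.65e-09, the largest change among the tested members. Its neighbour and paralog IFI44L had 1.35 and 1.79 CPM in A4 against 4.22 and 4.19 CPM in B212. It rose by 1.42 ± 0.16 on the log2 scale, at an edgeR adjusted p of 4.51e-07. Both promoters, which lie close together on chromosome 1, held an ISRE match printed above.

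The IFIT genes encode proteins with tetratricopeptide repeats that bind foreign RNA and restrain its translation. IFIT2 had 4.06 and 2.56 CPM in A4 and 9.21 and 8.85 CPM in B212. IFIT1 had 1.99 and 2.04 CPM in A4 and 5.20 and 5.40 CPM in B212. Both were higher in each B212 library, by log2 fold changes of 1.47 ± 0.14 (IFIT2) and 1.40 ± 0.14 (IFIT1), at edgeR adjusted p of 3.05e-08 and 9.36e-08. IFIT3, whose product stabilises IFIT1 on RNA, had 2.57 and 2.47 CPM in A4 against 4.26 and 3.75 CPM in B212. Its difference was smaller, 0.67 ± 0.14 at an edgeR adjusted p of 7.11e-04. IFIT5 had 0.546 and 0.378 CPM in A4 and 0.258 and 0.286 CPM in B212. IFIT5 thus lay lower in both B212 libraries, but its log2 fold change of -0.76 ± 0.36 missed the threshold, at an edgeR adjusted p of 0.0864. With trends on transcript length and GC content removed, IFIT5 was called lower, by -0.90 at an edgeR adjusted p of 0.0439.

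BST2 (tetherin), which holds budding virions at the cell surface, had 3.43 and 3.86 CPM in A4 and 8.19 and 8.06 CPM in B212. It rose by 1.16 ± 0.12 (log2), at an edgeR adjusted p of 1.72e-07. SAMD9, a restriction factor of poxviruses, had 22 and 16 counts in A4 and 76 and 68 in B212, so its fold change of 3.68 rests on few reads. Its log2 fold change was 1.88 ± 0.32, at an edgeR adjusted p of 6.16e-05. SAMD9L, its paralog on the same chromosome, was not detected beyond 1 count.

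HERC5, the ligase that attaches ISG15 to newly made proteins, had 1.41 and 1.62 CPM in A4 and 3.54 and 4.19 CPM in B212. HERC6, its close relative, had 2.50 and 2.19 CPM in A4 and 3.69 and 4.57 CPM in B212. Both were higher in each B212 library, with log2 fold changes of 1.35 ± 0.16 (HERC5) and 0.81 ± 0.16 (HERC6) and edgeR adjusted p-values of 7.25e-07 and 2.15e-04. ISG15, the ubiquitin-like modifier itself, had 45 and 54 counts in A4 against 108 and 79 in B212, a log2 fold change of 0.88 ± 0.24 at an edgeR adjusted p of 0.00552. USP18, which removes ISG15 and also blunts signalling at IFNAR2, had 3.62 and 3.74 CPM in A4 and 5.95 and 5.62 CPM in B212. It rose by 0.65 ± 0.13, at an edgeR adjusted p of 2.74e-04. Of the 32-base words of the USP18 transcript, 30.4% occur in other genes, most of them in USP41, which was not analysed here. UBA7 and UBE2L6, the activating and conjugating enzymes of ISG15 and no members, were not called, with log2 fold changes of 0.12 and 0.35 at edgeR adjusted p of 0.811 and 0.146. DESeq2 did not call ISG15 either, with an adjusted p of 0.12.

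MX1, the cytoplasmic GTPase that traps viral nucleocapsids, had 0.833 and 0.768 CPM in A4 and 1.73 and 1.30 CPM in B212, and rose by 0.91 ± 0.22. IFI6, a mitochondrial and endoplasmic reticulum protein, had 33 and 33 counts in A4 and 80 and 50 in B212, and rose by 0.91 ± 0.29. IFI27, of the same family, had 36 and 63 counts in A4 and 92 and 79 in B212, and rose by 0.79 ± 0.26. Their edgeR adjusted p-values were 0.00191, 0.0123 and 0.0153. ISG20, an exonuclease, had 2 and 9 counts in A4 and 26 and 12 in B212. Since it passed the filter only through B212, its fitted value is not given. These 4 genes had low counts, and the B212 libraries of MX1, IFI6 and IFI27 were higher without overlap.

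IFITM2 and IFITM3 went the other way. IFITM3 had 50.3 and 48.6 CPM in A4 and 45.2 and 37.0 CPM in B212, and IFITM2 had 19.9 and 18.6 CPM in A4 and 17.5 and 14.2 CPM in B212. They fell by 0.27 ± 0.080 (IFITM3) and 0.29 ± 0.092 (IFITM2) on the log2 scale, at edgeR adjusted p of 0.00789 and 0.0130. Scaled by library size alone, the IFITM2 call was lost, at an edgeR adjusted p-value of 0.0523. IFITM1, the third gene of the cluster, had 6.84 to 7.35 CPM in A4 and 7.58 to 8.98 CPM in B212. Its log2 fold change of 0.22 ± 0.12 was not called, at an edgeR adjusted p of 0.123, but it was called higher with library sizes alone, at 0.0432. EIF2AK2 (PKR, the kinase that halts translation on double-stranded RNA) had 123 and 119 CPM in A4 against 117 and 123 CPM in B212. The libraries overlapped, and the log2 fold change of -0.0093 ± 0.069 turned to 0.058 with library sizes alone. With the length and GC trend removed, EIF2AK2 was called lower, by -0.15 at an edgeR adjusted p of 0.0403. OASL and IFI35 were not called either, at edgeR adjusted p of 0.360 and 0.375.

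Of the 8 regulators, 5 were tested and 3 were called higher in B212, with a median of 0.39. This share of calls was near the 51.0% of all tested genes, of which 25.2% were higher. STAT2, the subunit that gives ISGF3 its activation domain, had 44.8 and 38.4 CPM in A4 and 69.1 and 72 CPM in B212. It had the highest level per kilobase among the members that rose, and the rise was 0.77 ± 0.080 (log2) or 1.70-fold, at an edgeR adjusted p of 1.40e-07. IRF9, the DNA-binding subunit of ISGF3, had 3.66 and 4.11 CPM in A4 and 4.39 and 5.28 CPM in B212. These values did not overlap, but the log2 fold change of 0.31 ± 0.13 fell just outside the threshold, at an edgeR adjusted p of 0.0508. With library sizes alone it was 0.38, at an edgeR adjusted p of 0.0184. All 32-base words of the IRF9 transcript also occur in another gene model, which was not analysed here. IRF1, a transcription factor of both interferon types, had 5.37 and 5.13 CPM in A4 and 7.17 and 6.59 CPM in B212, and rose by 0.39 ± 0.12 at an edgeR adjusted p of 0.00940. IRF7, which amplifies interferon production, had 1.43 and 1.16 CPM in A4 and 1.43 and 1.42 CPM in B212, with a log2 fold change of 0.14 and an edgeR adjusted p-value of 0.596.

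Of the 3 cytoplasmic RNA sensors, DDX58 (RIG-I) had 26 and 28.4 CPM in A4 and 34.4 and 38.9 CPM in B212. It rose by 0.43 ± 0.080 (log2), or 1.35-fold, at an edgeR adjusted p of 1.57e-04. DHX58 (LGP2) had 16 to 25 counts in every library, with a log2 fold change of 0.073 and an edgeR adjusted p-value of 0.900. IFIH1, as given above, was near 0. Of the sensors, DDX58 alone was called, and the difference between its value and that of DHX58 was not tested.

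**Figure D3:**
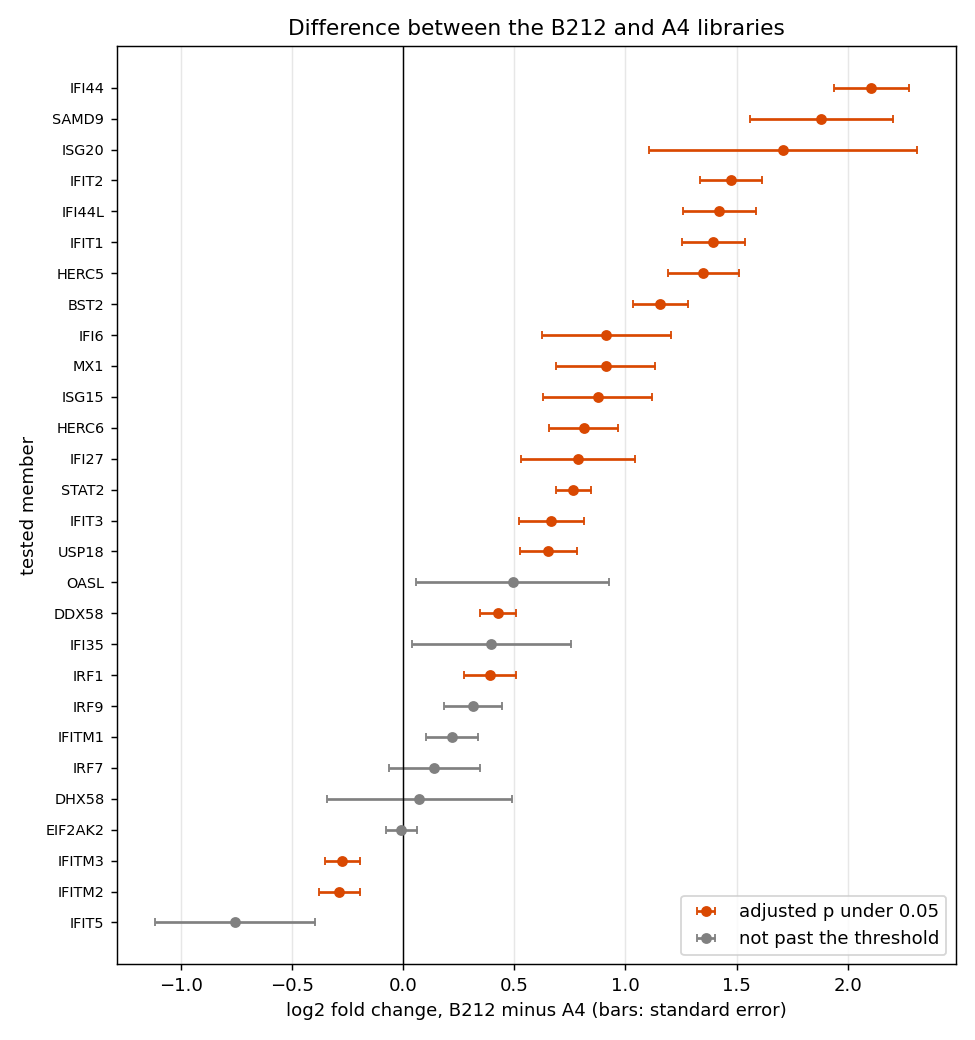
Log2 fold change between the B212 and A4 libraries (x axis, bars are standard errors) of the 28 tested members (y axis), with members at an adjusted p-value under 0.05 coloured. The values run from -0.76 (IFIT5, not called) to 2.11 (IFI44), and the called members lie to the right of 0 except IFITM2 and IFITM3.

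Not all calls held equally. Over the 13 analyses run for this comparison (the one above and 12 alternatives), BST2, HERC5, HERC6, IFI44, IFI44L, IFIT1, IFIT2, SAMD9, STAT2 and USP18 were called in 13. IFIT3 was called in 12, DDX58 in 11, MX1 in 10, ISG15 in 9 and IRF1 in 7. IFI6, IFI27 and IFITM3 were called in 8 and IFITM2 in 6, the fewest among the 20. ISG20 is left out of this tally, since it passed the filter only through B212. These analyses share libraries and are not independent. In 4 of them 1 library was left out, so that a clone had a single library, which was assumed to vary like the pair of the other clone. Among the 20 calls, DESeq2 lost those of ISG15, ISG20, IFI6, IFI27, IFITM2, MX1 and IRF1.

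The chromosomal neighbours of the members were examined because clones can differ over long stretches of a chromosome. For each member the 5 protein-coding genes on each side in the RefSeq order were taken, leaving out other members. The neighbour medians of the 18 members called higher ran from -0.23 to 0.58. That these members lay above them is no result, since they were picked for being high. Among the other tested members, IFIT5 (-0.76), IRF7 (0.14), IFITM2 (-0.29), IFITM3 (-0.27) and EIF2AK2 (-0.0093) lay below their neighbour medians. These medians were 0.11, 0.21, 0.0014, 0.0014 and 0.0084. IFI35, IFITM1, OASL, IRF9 and DHX58 lay above theirs. Around IFI44 and IFI44L the neighbours ranged from -0.26 to 0.55 with a median of -0.10. Around STAT2 the median was 0.026, with a range from -0.65 to 0.91 and 5 of 9 tested neighbours higher. Of the genes nearest to STAT2 (0.77), PAN2 was at 0.71, IL23A at 0.91 and TIMELESS at 0.15. Around BST2 (1.16) the median was -0.0074, with a range from -0.43 (GTPBP3) to 1.29 (TMEM221) and 4 of 8 tested neighbours higher. Around MX1, 8 of 9 tested neighbours were higher, with a median of 0.58, so the neighbourhood of MX1 moved with it. IFI27 had a neighbour median of 0.43. The part of the neighbourhood in these differences was not tested.

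The promoter matches were set beside these values as a description. Over all tested genes, 25.2% were called higher and 25.8% lower in B212. The median difference between the clones was 0.91 over the 16 tested members with an ISRE match, of which 12 were called higher and 1 lower. The 12 include ISG20, which passed the filter only through B212. The median was 0.41 over the 6 tested members whose window held no match, of which 4 were called higher. Over the 6 tested members with no window in the table the median was 0.32, with 2 called higher and 1 lower. These sets are small and were not compared by a test.

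Estradiol left no call among the members. With no block for the clone, the fit chosen for this comparison, edgeR's quasi-likelihood test called 0 of the 28 members, beside 0% of all 15599 genes. At an unadjusted p under 0.05 there were 0 members, beside 150 genes or 0.962%. The clones were part of the spread in that fit, whose biological coefficient of variation was 32.2%, and the smallest adjusted p-value of a member was 0.9999. The median log2 fold change (E2 minus DMSO) was -0.039 over the members and -0.0081 over all genes. With the clone tag as a block the coefficient of variation was 5.99% and edgeR called 9.56% of all genes, 6.13% higher and 3.44% lower with E2. Among the members it still called 0 of 28, with 3 at an unadjusted p under 0.05, beside 25.3% of all genes, and a median of -0.050. The member values in that fit ran from -0.34 (IFI6) to 0.38 (IFI35), with a median standard error of 0.16. Differences of the size of that error were not detectable at this depth and number of libraries.

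The 5 members with the smallest p-values in the block fit were IFIT2, IFITM2, IFITM3, DDX58 and IRF9. IFIT2 had 4.06 (DMSO) and 2.56 (E2) CPM in A4 and 9.21 and 8.85 CPM in B212. It was lower with E2 in each clone, by log2 fold changes of -0.66 in A4 and -0.057 in B212, the larger of which came from the A4 pair. The fitted value was -0.22 ± 0.74 with no block and -0.31 ± 0.14 with the block, at edgeR adjusted p of 0.9999 and 0.157. IFITM3 went from 50.3 to 48.6 CPM in A4 and from 45.2 to 37.0 CPM in B212. IFITM2 went from 19.9 to 18.6 CPM in A4 and from 17.5 to 14.2 CPM in B212. For both genes the larger step was in B212, and the block fit gave -0.17 ± 0.080 (IFITM3) and -0.20 ± 0.091 (IFITM2), at edgeR adjusted p of 0.194 and 0.173.

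IFITM2 and IFITM3 were the only members called for E2 in any of the alternatives run. When trends on the length and the GC content of transcripts were also removed from each library, their log2 fold changes were -0.33 and -0.30, at edgeR adjusted p of 0.0318 and 0.0214. In that fit 3.89% of all genes were called, with 1.42% lower, and 3 members had an unadjusted p under 0.05, beside 20.4% of all genes. The members had a median transcript length of 2.56 kb and a median GC content of 52.0%, beside 3.27 kb and 48.8% for the tested genes.

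DDX58 went from 26 to 28.4 CPM in A4 and from 34.4 to 38.9 CPM in B212 with E2. IRF9 went from 3.66 to 4.11 CPM in A4 and from 4.39 to 5.28 CPM in B212. Both were higher with E2 in each clone, but the block fit gave 0.15 ± 0.079 (DDX58) and 0.22 ± 0.13 (IRF9), at edgeR adjusted p of 0.244 and 0.312. IFI44, the member with the largest clone difference, had 64 and 94 counts in A4 and 344 and 341 in B212, and a block value of 0.27 ± 0.16 at an edgeR adjusted p of 0.322. EIF2AK2 had the tightest estimate, 0.012 ± 0.069 at an edgeR adjusted p of 0.933. Over the 28 members, 6 were higher with E2 in both clones, 8 were lower in both and 14 went in opposite directions. The median was -0.046 within A4 and -0.0053 within B212.

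**Figure D4:**
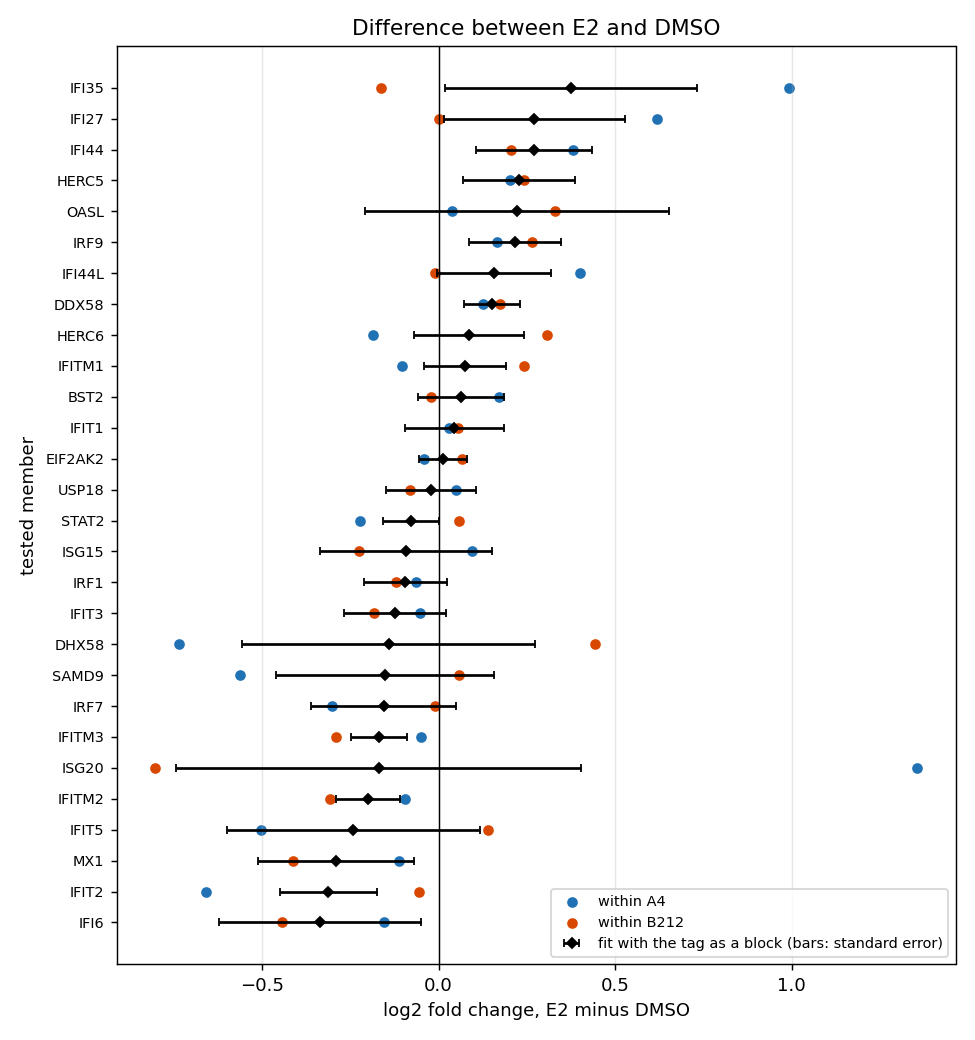
Log2 fold change of E2 against DMSO (x axis) of the 28 tested members (y axis) from the fit with the clone tag as a block (diamonds, bars are standard errors) and within A4 and within B212 (points, 1 library per treatment). The block values lie between -0.34 and 0.38, and the widest within-clone value is that of ISG20 in A4, at 1.36 from 2 and 9 counts.

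The rest of the pathway was read from lists of ligands, receptors, mediators and other induced genes. The 21 interferon ligands were all under the count filter. IFNE had 1 to 9 counts per library, IFNW1, IFNG and IFNL1 had at most 1, and the others had none. Most interferon genes are known to be silent in cells that sense no infection. All 6 receptor genes were tested, and in the clone comparison 0 were higher and 2 lower in B212, with a median of -0.12. Over all tested genes these shares were 25.2% and 25.8%. IL10RB, a chain of the type III receptor, fell by 0.46 and IFNAR2 by 0.21 on the log2 scale, at edgeR adjusted p of 2.85e-04 and 0.0450. IFNAR1 had 131 to 147 CPM and was not called. With library sizes alone, 1 receptor was called lower.

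Of the 12 mediators and inhibitors, 3 were higher in B212 and 3 lower, with a median of 0.060, a share of calls near the 51.0% of all genes. Scaled by library size alone there were 4 higher and 1 lower, with a median of 0.13. JAK1 and IRF2, a factor that competes with IRF1, were higher by 0.57 ± 0.11 and 0.76 ± 0.16, at edgeR adjusted p of 1.61e-04 and 6.33e-04. SOCS1, the feedback inhibitor of JAK kinases, had 1.76 and 1.94 CPM in A4 and 0.996 and 1.11 CPM in B212. It fell by 0.82 ± 0.20, at an edgeR adjusted p of 0.00199. Of the phosphatases of the pathway, PTPN2 fell by 0.25 and PTPN6 rose by 0.31, at edgeR adjusted p of 0.0101 and 0.00664, and PTPN1 was also called lower.

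Of the 12 adaptors and enzymes of nucleic acid sensing, 10 were tested, and 4 were higher and 1 lower in B212, with a median of -0.042, again a share near the 51.0% of all genes. With library sizes alone the median turned to 0.026 and the lower call was lost. TMEM173 (STING), MAVS, through which RIG-I signals, IRF3 and TRIM25 were higher by 0.66, 0.38, 0.35 and 0.18 on the log2 scale, at edgeR adjusted p of 7.25e-04, 2.37e-04, 0.00220 and 0.0429. The lower call was TBK1, which fell by 0.23 with the scaling used, at an edgeR adjusted p of 0.00981. MB21D1 (cGAS) had 3 to 9 counts and was not tested.

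A second list of 40 interferon-induced genes, none of them members, was read in the same way. It had 28 tested genes, of which 15 rose and 2 fell in B212, with a median of 0.37, beside 25.2% higher and 25.8% lower over all genes. GBP1, a guanylate-binding GTPase, had 1.20 and 1.86 CPM in A4 and 12.8 and 13.9 CPM in B212, a log2 fold change of 3.13 ± 0.14 at an edgeR adjusted p of 2.21e-13. EPSTI1 had 0.0819 and 0.0731 CPM in A4 and 0.996 and 1.17 CPM in B212, and LGALS3BP had 7.21 and 6.62 CPM in A4 and 18.8 and 16.9 CPM in B212. LGALS3BP rose by 1.37, at an edgeR adjusted p of 5.91e-10. EPSTI1, with 6 counts in each A4 library, passed the filter only through B212, so its direction was partly set by the filter and its fitted value is not given. It is among the 15 genes that rose, and the median includes it. DDX60, a helicase, and GBP2 rose by 1.54 and 1.62, at edgeR adjusted p of 1.69e-07 and 3.23e-07. TRIM21, named for its direction after its values were seen, fell by 2.42, from 1.24 and 1.85 CPM to 0.281 and 0.286 CPM, at an edgeR adjusted p of 4.05e-07.

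Of 21 genes of antigen presentation, 6 were tested, and 0 were higher and 5 lower in B212, with a median of -0.996. Over all tested genes these shares were 25.2% and 25.8%. HLA-B, HLA-C and PSMB10 fell by 2.83, 2.11 and 1.47 on the log2 scale, at edgeR adjusted p of 3.33e-06, 3.04e-08 and 2.15e-08. Several untested genes of this list lie in a region of chromosome 6 where the ribosomal protein gene RPS18 had at most 1 count per library, so counts there are not read as levels. For HLA-B and HLA-C the same limit applies, and B2M, on another chromosome, had 137 to 201 CPM and was not called.

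With E2 and the clone tag as a block, the calls were 1 of 6 receptors, 0 of 12 mediators, 1 of 10 adaptors, 3 of 28 further interferon-induced genes and 2 of 6 antigen presentation genes, beside 9.56% of all genes. IFNGR1, a chain of the interferon gamma receptor, rose by 0.31 ± 0.080 at an edgeR adjusted p of 0.0196, and B2M rose by 0.39 ± 0.078 with one of 0.00467. PSMB10 and PNPT1 were called higher, and MAVS, ZC3HAV1 and PML lower, at edgeR adjusted p of 0.0297 to 0.0473. With the length and GC trend removed, 0 genes of these lists were called. Scaled by DESeq2 size factors, with the block, 1 antigen presentation gene was called and 0 genes of the other lists. With library sizes alone and the block, 1 receptor, 1 adaptor, 2 further interferon-induced genes and 2 antigen presentation genes were called. The shares of all genes called under these scalings are not set beside these counts.

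**Figure D5:**
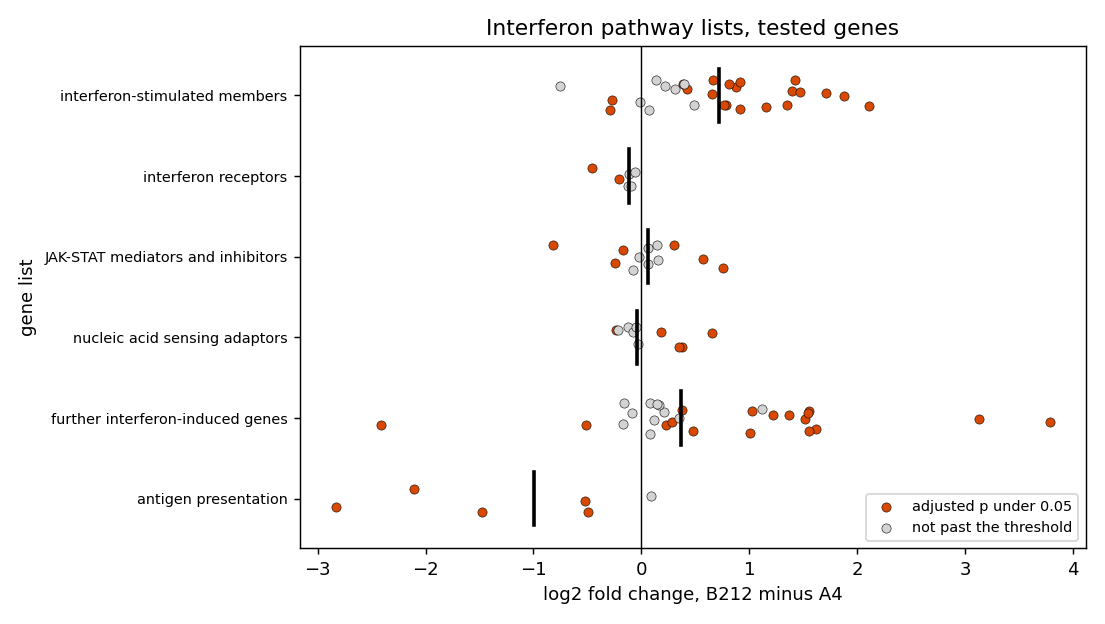
Log2 fold change between the B212 and A4 libraries (x axis) of the tested genes of each list (y axis), 1 point per gene, with genes at an adjusted p-value under 0.05 coloured. The members have a median of 0.72, the further interferon-induced genes 0.37, the receptors -0.12 and the antigen presentation genes -0.996. Among these points, ISG20 (members) and EPSTI1 (further interferon-induced genes) passed the filter only through B212.

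Markers of other cell types were checked beside these differences. The 7 epithelial markers were all tested, with a summed level of 2379 and 2237 CPM in A4 (DMSO, E2) and 3018 and 2762 CPM in B212. Of these markers, 5 were called higher in B212 and 0 lower, with a median of 0.50. The summed level of 7 immune markers was 1.99 to 3.20 CPM, and the T cell gene CD3E had no read in any library. Only 3 immune markers were tested, of which 1 was called higher in B212 and 0 lower, with a median of 0.38. The endothelial gene PECAM1 had none either, and the 3 endothelial markers summed to 2.11 to 4.5 CPM. The 1 endothelial marker tested was called higher in B212, by 0.58 on the log2 scale at an edgeR adjusted p of 0.00323. The 6 fibroblast markers summed to 130 and 94.2 CPM in A4 and 43.0 and 35.1 CPM in B212, nearly all of it COL1A1 (128 and 92.4 CPM in A4, 42.4 and 34.5 CPM in B212). The 3 tested fibroblast markers, COL1A1, COL1A2 and COL3A1, were all called lower in B212, with a median of -1.52, and DCN and LUM had at most 5 counts. Over all tested genes, 25.2% were called higher and 25.8% lower in B212. The part of the marker differences in the member differences was not tested.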

How the data were processed

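RNA was sequenced in 4 libraries, 2 per treatment. The authors deposited whole-number read counts for each gene symbol, made with HISAT2, SAMtools and featureCounts on hg19, with DESeq2 also named, per the submitters' processing notes. Versions, strand setting and annotation were not given in the sources used here, so antisense and overlapping genes cannot be parted. Another 4 columns matched no sample and were not used. Libraries held 71575816 to 85222856 counts.

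Counts were fitted with edgeR 4.0.16 (quasi-likelihood, TMM scaling, filterByExpr minimum count of 10) in R 4.3.3, with Benjamini-Hochberg adjustment over 15599 genes. CPM used TMM-scaled library sizes, and values within a clone a prior count of 2. Lengths came from the longest coding transcript in GENCODE 29. Pairing by tag rests on the column names: deviations of same-tag libraries correlated across genes (r = 0.871), a single independent value. Alternatives used DESeq2 1.42.0, limma 3.58.1 and mgcv 1.9.3, and figures matplotlib 3.10.9. The scripts were tested on simulated data. Full statistics went to the 12 members with the smallest p past the threshold between clones and, since none passed for E2, to 5 by p in the block fit. From each other list up to 5 genes past the threshold were named. Further members named, and IFNAR1, MB21D1, B2M, TRIM21, UBA7, UBE2L6 and the neighbours, were chosen with their values seen. The members and lists were chosen with earlier results of these data known. An item that the rule took is left out of the text.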

Additional observations from a re-analysis of the deposited data

Results flagged for a closer look

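The responses to E2 of 14 members had opposite signs in the 2 clones. These differences were not tested, since each clone had 1 library per treatment. The B212 response minus the A4 response, on the log2 scale, was -2.16 for ISG20, -1.16 for IFI35, -0.62 for IFI27, -0.41 for IFI44L, -0.32 for ISG15, -0.19 for BST2 and -0.13 for USP18. It was 1.18 for DHX58, 0.64 for IFIT5, 0.62 for SAMD9, 0.49 for HERC6, 0.35 for IFITM1, 0.28 for STAT2 and 0.11 for EIF2AK2. ISG20, DHX58, IFI35 and IFIT5 had at most 42 counts in a library. STAT2 had 3280 and 3151 counts in A4 (DMSO, E2) and 5900 and 5276 in B212.

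The difference between the clones had opposite signs under the 2 treatments for 4 members, again untested. The difference with E2 minus that with DMSO was -1.16 for IFI35, 1.18 for DHX58, 0.29 for IRF7 and 0.11 for EIF2AK2.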

How the results depend on the processing

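For E2, 0 of 28 members were called with no block, and the paired fit, with the clone tag as a replicate block, also gave 0 while it called 1492 genes. Both scalings, both filters, DESeq2 and limma-voom gave 0 as well. The trend on length and GC with the replicate block gave 2. DESeq2 with the block gave no adjusted p for 24 members. The member median for E2 was -0.069 with library sizes alone and the block, -0.10 with no filter and -0.10 with no filter and the block. Leaving out 1 library gave -0.48 to 0.37, and for single members -1.37 to 0.48 (IFIT2), -0.39 to 0.025 (IFITM3) and -0.089 to 0.37 (DDX58). Each left-out library unbalances the clones.

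Between the clones, 20 calls became 13 with DESeq2 and 8 where changes under 1 (log2) were left out. With the treatment term, leaving out a library leaves no residual degrees of freedom, so these fits gave values only, with medians of 0.59 to 0.72. Fits with no treatment term, chosen after seeing the data, gave 13 (A4 DMSO left out), 10 (B212 DMSO left out) and 14 and 15 without the others. Without the B212 DMSO library DDX58 and IFIT3 lost their calls, with edgeR adjusted p-values of 0.0575 and 0.0925, and without the B212 E2 library DDX58 did, at 0.229. The remaining alternatives gave 14 to 23 calls. Shares of all genes called are not set beside the member counts of these alternatives, so the counts are not read against a background. None of the 12 named members changed direction in this comparison. Depth limits the members with few counts.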
